A study of Arabidopsis thaliana with 4 samples.

Results

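The chloroplast keeps a small genome of its own, inherited from the cyanobacterium it descends from. It encodes core subunits of the photosynthetic complexes and part of the machinery that expresses them, namely an RNA polymerase, ribosomal proteins, rRNAs and tRNAs. Every one of these complexes also takes subunits from the nucleus. Plastid genes are transcribed by the plastid-encoded polymerase, which serves most photosynthesis genes, and by nuclear-encoded polymerases of the phage type, and neighbouring genes are often transcribed together and then processed. The members described here are all probe sets of the ATH1 array that are annotated with 1 gene and whose gene lies on the chloroplast genome of Arabidopsis thaliana in the RefSeq gene table. There were 69, each for a different gene, among 13513 probe sets with a single gene. The chloroplast genome has 78 protein-coding genes by symbol, of which 7 were covered by probe sets shared by both of their annotated copies. The 37 tRNA and 7 rRNA genes of the plastid had no single-gene probe set here.

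RNA of whole seedlings was measured on 4 arrays, 2 of wild-type Col-0 and 2 of the exo70A1-2 mutant in the same background, all 1.0 week old. Both genotypes had been kept cold for 3 days as seed and grown upright at 22 °C in constant light on agar medium. EXO70A1 encodes a subunit of the exocyst, which tethers secretory vesicles to the plasma membrane, and the comparison asks which plastid transcripts differ in level when it is mutated. The labels do not say whether arrays of 1 genotype came from separate plates, and the p-values can then speak only for array-to-array spread, part or all of which may be technical. EXO70A1 itself had 0 single-gene probe sets, so the mutation was not checked on the arrays.

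Values are the deposited signals, on a linear scale and scaled to an equal trimmed mean on each array. Labelling was by 3' in vitro transcription, which primes on poly(A), and plastid mRNAs mostly lack a stable poly(A) tail. Signals of different genes also depend on their probes, so no gene's level is set against another's. Dim probe sets were left untested: the limit was a signal of 21.9 (averaged as log2), which 40% of the array's probe sets fall short of, and 68 of the 69 members passed it. The member left out was ndhF, a membrane subunit of the NDH complex, with signals of 21.6 and 13.4 in Col-0 and 20.8 and 12.1 in exo70A1-2. Among 18 probe sets matched by symbol to mitochondrion-encoded genes (11 genes, with several probe sets for nad1), 16 did not pass the filter. As signals depend on probes, this count does not compare transcript levels of the organelles. The mitochondrial genes tested were nad4, with a log2 fold change of 0.06, and cox1, with 0.37, neither called.

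The summed plastid signal was close to equal in the mutant and the wild type, and 2 genes were called. The 69 signals added up to 97080 and 94630 on the Col-0 arrays and to 95390 and 93830 on the exo70A1-2 arrays. As a share of all signal this was 2.99% and 2.98% in Col-0 and 3.03% and 3.00% in exo70A1-2. The 4 shares differed by less than 0.1 percentage points. By share both mutant arrays were slightly above both Col-0 arrays, while the sums of the genotypes overlapped. Only psbK rose and only psbA fell at an adjusted p under 0.05 (limma over all 13648 tested probe sets, Benjamini-Hochberg adjustment). By the same rule 8.54% of all tested probe sets were higher and 7.5% were lower in exo70A1-2, while the 2 members called are 2.94% of 68. At an unadjusted p under 0.05 there were 7 members higher and 4 lower. The 8.54% and 7.5% are by adjusted p, and no share over all tested probe sets is given at the unadjusted threshold. In a sample of whole plants, fewer cells of a type and less RNA per cell cannot be told apart.

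The members' log2 fold changes (exo70A1-2 over Col-0) had a median of 0.05, where all tested probe sets had a median of 0.00. Fitted values were above 0 for 39 members and below 0 for 29. The middle of the distribution, from the lower to the upper quartile, ran from -0.13 to 0.24 for the members and from -0.24 to 0.25 for all tested probe sets. Of the 68 members 65 had a fitted change of less than 0.5 in either direction, or 95.6%, against 80.0% of all tested probe sets. None of the 68 reached a 2-fold change, while 599 of all 13648 did. For 64 members the 95% interval of the fold change, taken gene by gene, lay within 2-fold up or down. The exceptions were psbK, petG, ndhH and psbN, whose intervals reached past it on 1 side.

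**Figure D1:**
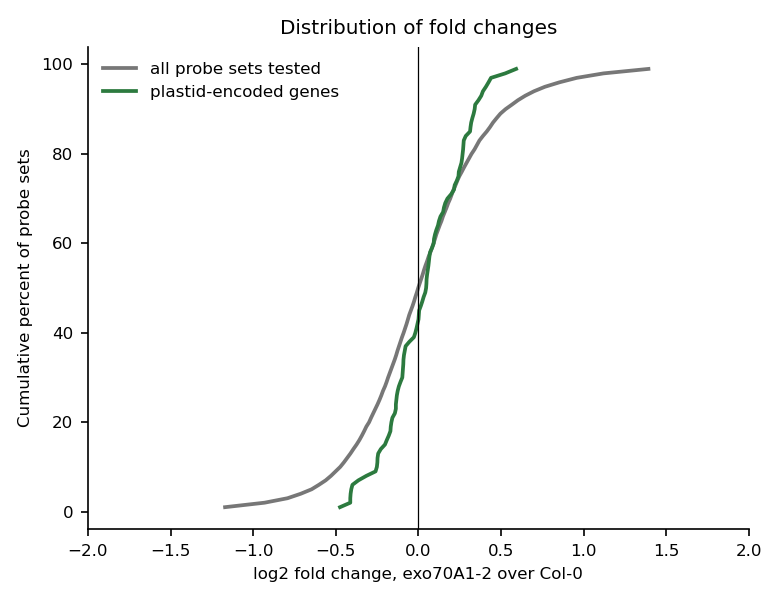
Cumulative percent of probe sets (vertical axis) against log2 fold change of exo70A1-2 over Col-0 (horizontal axis), for all 13648 tested probe sets in grey and the 68 tested plastid-encoded genes in green, drawn from the 1st to the 99th percentile. The curves meet near 0.08, and at 0 the green one lies below the grey one. The green one is steeper at both ends, since 95.6% of the members lie within 0.5 of 0 against 80.0% of all probe sets.

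The Col-0 arrays stood apart from each other on these genes. Col-0 replicate 1 was the highest or the lowest of the 4 arrays for 55 of 68 members, or 80.9%, against 59.2% of all tested probe sets. It was the lowest for 31 members and the highest for 24, so the array was not shifted 1 way. Both exo70A1-2 arrays lay between the Col-0 arrays for 17 members, or 25.0%, and for 11.0% of all tested probe sets. The reverse, both Col-0 arrays between the mutant arrays, held for 2 members, or 2.94%, and for 6.12% of all tested probe sets. The median gap between replicate arrays was 0.22 on the log2 scale in Col-0 and 0.14 in exo70A1-2, and the Col-0 gap was the larger for 47 of 68 members. Over all tested probe sets the median gap was 0.19 in Col-0 and 0.15 in exo70A1-2. Across the 68 genes, log2 signals of Col-0 replicate 2 correlated at 0.979 with Col-0 replicate 1 but at 0.989 and 0.993 with the mutant arrays. Across all tested probe sets the order was the other way round, with 0.980 between the Col-0 arrays and 0.947 and 0.955 between Col-0 replicate 2 and the mutant. These correlations run across genes that share arrays and probes, and are given as descriptions.

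**Figure D2:**
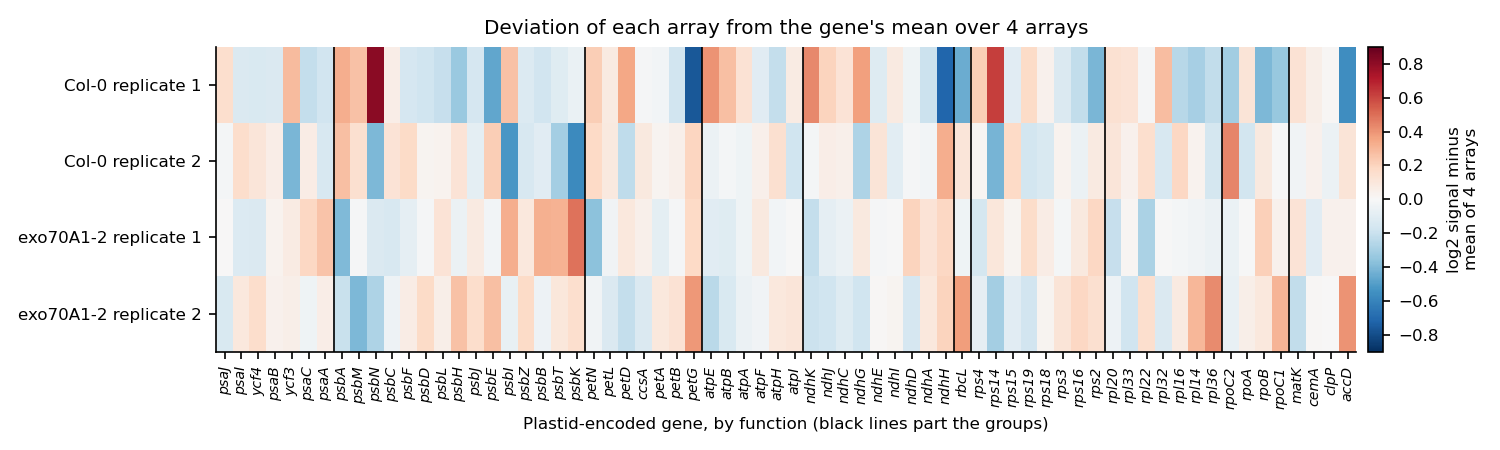
Each cell is the log2 signal of 1 plastid-encoded gene (column) on 1 array (row) minus that gene's mean over the 4 arrays, red above and blue below the mean, with genes ordered by function and then by log2 fold change. Col-0 replicate 1 holds most of the deep colours in both directions, among them psbN and rps14 above and petG and ndhH below the mean.

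Both exo70A1-2 arrays lay above both Col-0 arrays for 13 members, or 19.1%, and below them for 15, or 22.1%. Over all tested probe sets these shares were 30.0% and 30.6%. For the other 40 members the genotypes overlapped. Fitted values depended on which Col-0 array was present. Without Col-0 replicate 1 the log2 fold changes were 0.89 for psbK, 0.65 for psbI and -0.50 for rpoC2. Without Col-0 replicate 2 they were 0.38, -0.13 and 0.25. For petG the value was 0.09 without Col-0 replicate 1 and 1.05 without Col-0 replicate 2. For psbN these were 0.20 and -1.02. Without exo70A1-2 replicate 1 rpl36 stood at 0.615 and psbM at -0.61, and without exo70A1-2 replicate 2 at 0.14 and -0.22. The psbA value stayed between -0.69 and -0.50 whichever array was left out.

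**Figure D3:**
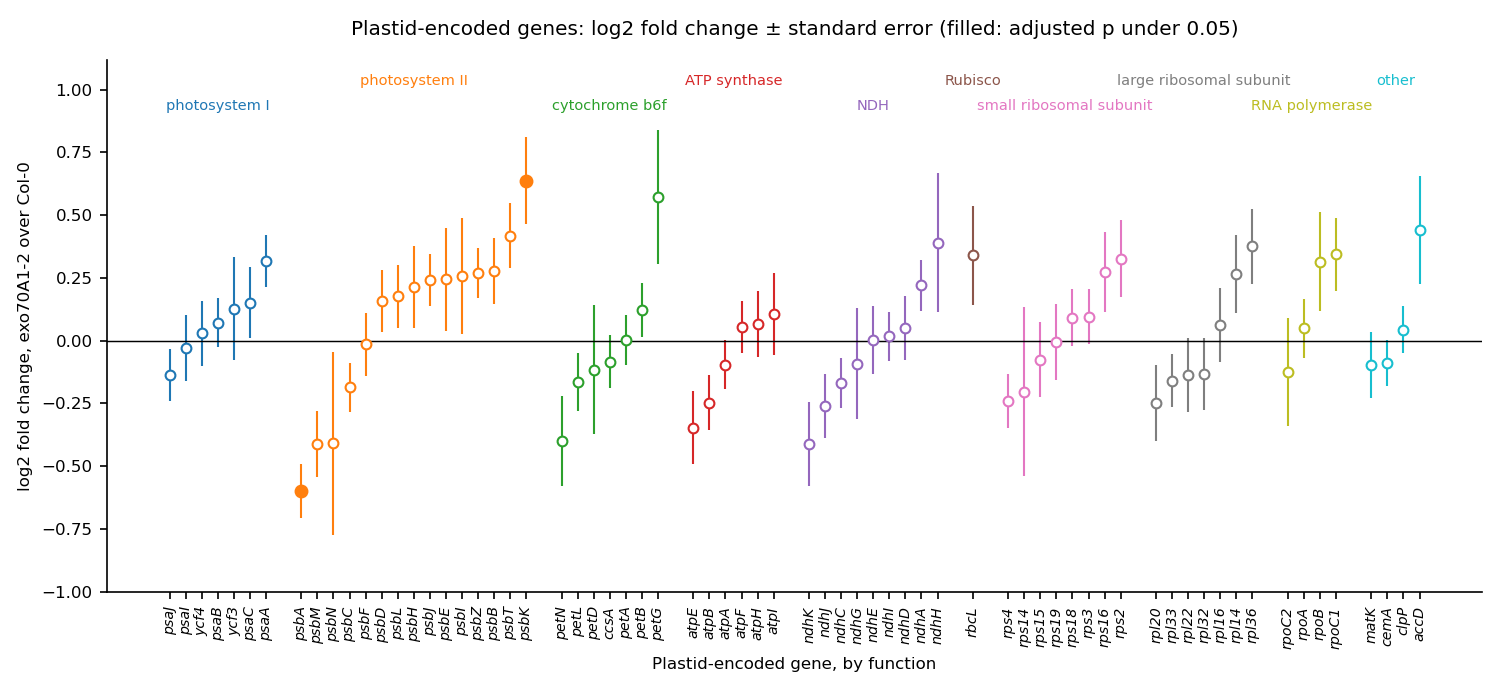
Log2 fold change of exo70A1-2 over Col-0 (vertical axis) for the 68 tested plastid-encoded genes, grouped by function and sorted within each group. Points are fitted values, bars are their standard errors, and filled points passed an adjusted p of 0.05, which psbK and psbA did.

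Photosystem II, which splits water and feeds electrons into the photosynthetic chain, had 15 members, all tested, and they held both calls. The psbA gene encodes the D1 reaction-centre protein, which is damaged by light and replaced throughout the day. Its signal was 1481 and 1418 in Col-0 and 896.5 and 1023 in exo70A1-2, so both mutant arrays lay well below both wild-type arrays. This was 1450 ± 44.6 against 960.0 ± 89.8 (mean ± SD, n = 2 arrays each), a fold of 0.661 with a 95% interval from 0.557 to 0.783, and psbA fell by 0.60 on the log2 scale (SE 0.11, adjusted p = 0.00793, limma). Leaving out exo70A1-2 replicate 1 ended this call (log2 fold change -0.50, adjusted p = 0.0642, limma). The psbK gene encodes a small subunit of the photosystem II core. Its signal was 2431 and 1706 in Col-0 and 3563 and 2814 in exo70A1-2, higher on both mutant arrays but with wide gaps within each genotype. The fold was 1.55 with a 95% interval from 1.18 to 2.04 (log2 fold change 0.64, SE 0.17, adjusted p = 0.0393, limma). The psbK call ended without Col-0 replicate 2 (log2 fold change 0.38, adjusted p = 0.0520), without exo70A1-2 replicate 1 (0.47, adjusted p = 0.133), with no filter on dim probe sets (adjusted p = 0.111) and without the intensity trend (adjusted p = 0.107).

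The psbI gene lies beside psbK on the genome and also encodes a small core subunit. Its signal was 1743 and 1013 in Col-0 and 1823 and 1387 in exo70A1-2. As with psbK, replicate 1 was the brighter array in both genotypes, but for psbI the genotypes overlapped (log2 fold change 0.26, SE 0.23, adjusted p = 0.487, limma). For psbM, a small subunit at the dimer interface, signal was 7102 and 6524 in Col-0 and 5859 and 4470 in exo70A1-2. Both mutant arrays were lower, and the log2 fold change of -0.41 (SE 0.13) missed the threshold (adjusted p = 0.0645, limma). The small subunit gene psbT, at 346 and 302 in Col-0 and 464 and 402 in exo70A1-2, was higher on both mutant arrays and missed it as well (log2 fold change 0.42, SE 0.13, adjusted p = 0.0600, limma).

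The genes of the other large core subunits of photosystem II were not called. The log2 fold change was 0.16 for psbD, which encodes the D2 partner of D1, 0.28 for psbB and -0.19 for psbC, which encode the inner antenna proteins CP47 and CP43. The cytochrome subunit genes psbE and psbF stood at 0.25 and -0.02, and the small subunit genes psbL, psbH, psbJ and psbZ between 0.18 and 0.27. None of these passed the test, and without Col-0 replicate 1 psbE stood at -0.10 and psbH at -0.01. The psbZ signal of 1060 and 1042 in Col-0 against 1231 and 1303 in the mutant did not overlap, with a log2 fold change of 0.27 (SE 0.10, adjusted p = 0.0995, limma). The psbN gene, an assembly factor gene in the psbB region, was near the dim limit, at 43.5 and 18.8 in Col-0 and 22.6 and 20.5 in exo70A1-2. Its fitted value of -0.41 rested on Col-0 replicate 1 and was 0.20 without that array. The median over the 15 genes was 0.21, with 6 genes higher and 3 lower on both mutant arrays, where over all tested probe sets 30.0% were higher and 30.6% lower. Without Col-0 replicate 1 the median was 0.06.

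**Figure D4:**
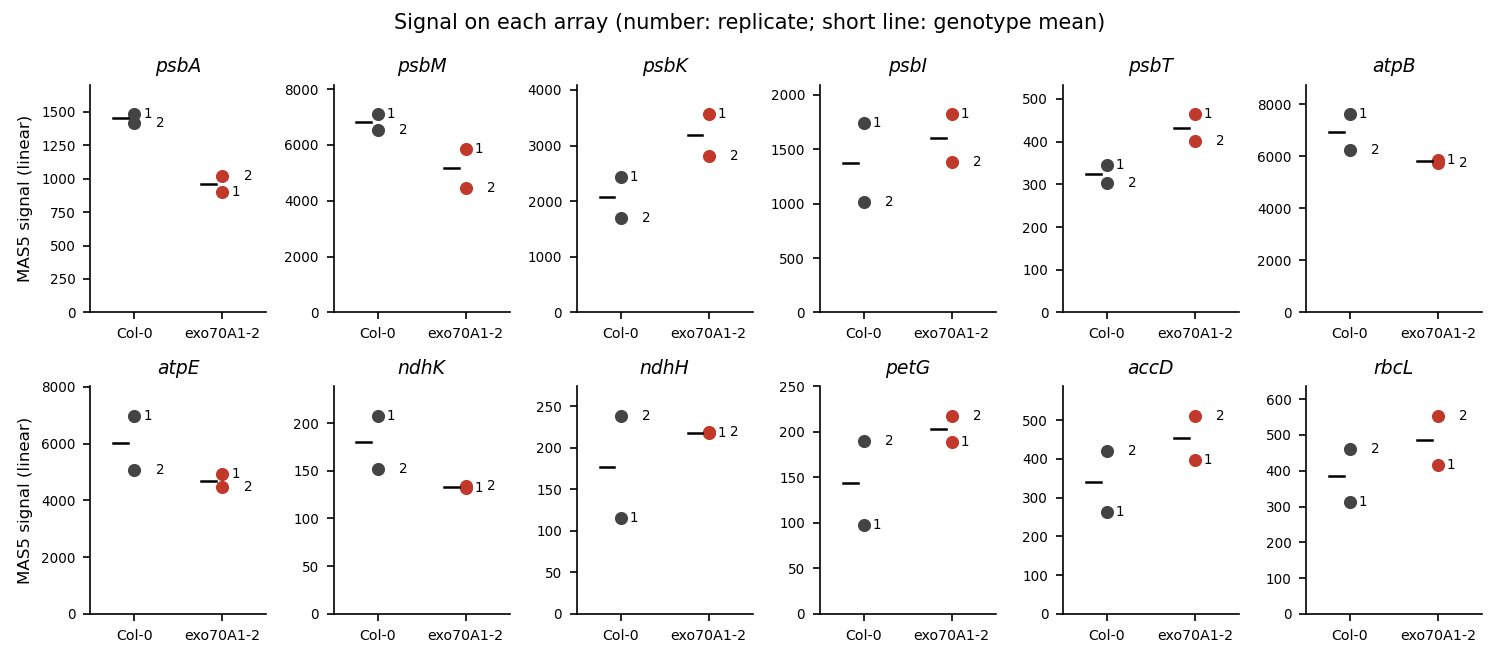
Linear signal (vertical axis, from 0) of 12 plastid-encoded genes on each array, Col-0 in grey and exo70A1-2 in red, with the replicate number beside each point and a short line at the mean of the 2 arrays. The genotypes are clearly apart for psbA, while for petG, accD and rbcL the points of Col-0 replicate 1 lie lowest and the other arrays overlap.

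Photosystem I, which passes electrons to ferredoxin, had 7 members and no call. The reaction-centre gene psaA had signals of 2372 and 2423 in Col-0 and 3204 and 2783 in exo70A1-2, higher on both mutant arrays (log2 fold change 0.32, SE 0.10, adjusted p = 0.0693, limma). Its partner psaB, transcribed from the same unit, read 4141 and 4724 in Col-0 and 4646 and 4653 in the mutant, with a log2 fold change of 0.07 and overlapping genotypes. The lowest of the group was psaJ, a small subunit gene, at 3290 and 2924 in Col-0 and 2963 and 2686 in exo70A1-2 (log2 fold change -0.14). The iron-sulfur subunit gene psaC stood at 0.15, psaI at -0.03, and the assembly factor genes ycf3 and ycf4 at 0.13 and 0.03. After quantile normalization psaA was called, as was psbZ of photosystem II.

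The cytochrome b6f complex, which links the photosystems, had 7 members when ccsA, a gene of cytochrome c heme attachment, is counted with it. None was called. The small subunit gene petG had signals of 97.7 and 190 in Col-0 and 188 and 217 in exo70A1-2. The mutant arrays and Col-0 replicate 2 were alike, and Col-0 replicate 1 was far lower, so the log2 fold change of 0.57 had an SE of 0.27 (adjusted p = 0.182, limma) and was 0.09 without that array. In the other direction petN, another small subunit gene, read 67.1 and 65.0 in Col-0 and 44.6 and 56.2 in exo70A1-2, lower on both mutant arrays (log2 fold change -0.40, SE 0.18, adjusted p = 0.166, limma). The cytochrome b6 gene petB had 3472 and 4041 in Col-0 and 3878 and 4276 in the mutant (log2 fold change 0.12). The cytochrome f gene petA stood at 0.00, petL at -0.17, petD at -0.12 and ccsA at -0.08.

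The ATP synthase makes ATP from the proton gradient, and all 6 of its plastid genes were tested without a call. The genes of the beta and epsilon subunits, atpB and atpE, are transcribed together and both were lower on both mutant arrays. Signal of atpB was 7609 and 6235 in Col-0 and 5859 and 5748 in exo70A1-2, which is a log2 fold change of -0.25 (SE 0.11, adjusted p = 0.164, limma). Signal of atpE was 6987 and 5091 in Col-0 and 4925 and 4470 in exo70A1-2, which is a log2 fold change of -0.35 (SE 0.14, adjusted p = 0.138, limma). In each case Col-0 replicate 1 was the highest array, and without it the values were -0.10 and -0.12. The ATP synthase genes of the separate unit from rps2 to atpA stood closer to 0, atpI at 0.11, atpH at 0.07, atpF at 0.06 and atpA at -0.10. For atpI the signals were 74.1 and 62.0 in Col-0 and 70.2 and 75.7 in exo70A1-2. The summed signal of the group was 20540 and 17370 in Col-0 and 16730 and 16110 in exo70A1-2. Most of it came from atpB and atpE, which summed to 14600 and 11330 in Col-0 and 10780 and 10220 in exo70A1-2. The sum therefore mainly repeats these genes, and the median log2 fold change of the group was -0.02.

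The NDH complex runs cyclic electron flow around photosystem I, and 9 of its 10 members were tested, with no call. The neighbouring genes ndhC, ndhK and ndhJ, which form 1 unit, were lower on both mutant arrays. For ndhK the signal was 208 and 152 in Col-0 and 132 and 134 in exo70A1-2, which is a log2 fold change of -0.41 (SE 0.17, adjusted p = 0.131, limma), and -0.19 without Col-0 replicate 1. For ndhJ the log2 fold change was -0.26 and for ndhC -0.17, and neither passed. The other unit, from ndhH to ndhD, held values from -0.09 for ndhG to 0.39 for ndhH. The ndhH signal was 116 and 238 in Col-0 and 217 and 219 in exo70A1-2, so Col-0 replicate 1 alone was low, and without that array the log2 fold change was -0.13. The ndhI signal of 4492 and 3971 in Col-0 and 4235 and 4315 in the mutant overlapped entirely (log2 fold change 0.02), and the adjacent ndhA stood at 0.22. Nuclear CRR genes, which are needed to build this complex or to process its transcripts, gave other values in the same fit. All 5 matched by symbol were lower on both mutant arrays, with log2 fold changes from -0.90 for CRR42, the only one called, to -0.23 for CRR41. Near the dim limit were CRR22, at 37.38 and 28.26 in Col-0 and 20.15 and 18.23 in exo70A1-2, and CRR28. For CRR28 the signals were 36.71 and 31.4 in Col-0 and 20.45 and 31.14 in exo70A1-2, so the genotypes barely parted. Over all tested probe sets 30.6% were lower on both mutant arrays and 7.5% were called lower.

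The large subunit of Rubisco, the carbon-fixing enzyme, is encoded by rbcL. Its signal was 313 and 460 in Col-0 and 416 and 554 in exo70A1-2. The genotypes overlapped, and the log2 fold change of 0.34 (SE 0.20) did not pass (adjusted p = 0.278, limma). The adjacent accD gene, for a subunit of acetyl-CoA carboxylase in fatty acid synthesis, followed the same pattern over the 4 arrays. It read 263 and 419 in Col-0 and 397 and 511 in exo70A1-2, which is a log2 fold change of 0.44 (SE 0.21, adjusted p = 0.198, limma). Without Col-0 replicate 1 the values were 0.06 for rbcL and 0.10 for accD.

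The plastid's own expression machinery showed no call either. Of 15 ribosomal protein genes tested, 7 had fitted values above 0 and 8 below, with a median of -0.01. In the small subunit rps2 read 601 and 845 in Col-0 and 908 and 880 in exo70A1-2 (log2 fold change 0.33, SE 0.15, adjusted p = 0.188, limma), with 0.08 when Col-0 replicate 1 was left out. The signal of rps4 was 1694 and 1472 in Col-0 and 1299 and 1374 in the mutant (log2 fold change -0.24, SE 0.11, adjusted p = 0.167, limma). The remaining small subunit genes ran from -0.20 for rps14 to 0.27 for rps16. In the large subunit rpl36 was the highest, at 1065 and 1111 in Col-0 and 1196 and 1666 in exo70A1-2 (log2 fold change 0.38, SE 0.15, adjusted p = 0.126, limma), and the spread lay within the mutant, the value being 0.14 without exo70A1-2 replicate 2. The lowest was rpl20, at 88.3 and 86.6 in Col-0 and 69.6 and 77.9 in exo70A1-2 (log2 fold change -0.25). For rpl33 the signal was 2691 and 2541 in Col-0 and 2505 and 2190 in the mutant (log2 fold change -0.16).

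The 4 genes of the plastid-encoded RNA polymerase had log2 fold changes of 0.05 for rpoA (alpha subunit), 0.32 for rpoB, 0.34 for rpoC1 and -0.13 for rpoC2. The last 3 form 1 unit, known to be transcribed by a nuclear-encoded polymerase. The rpoC1 signal was 461.5 and 581 in Col-0 and 599.6 and 720 in exo70A1-2, higher on both mutant arrays (SE 0.15, adjusted p = 0.145, limma). Without Col-0 replicate 1 the rpoB value was 0.07. The rpoC2 signal was 181 and 304 in Col-0 and 215 and 215 in exo70A1-2, both mutant arrays lying between the wild-type arrays. The rpoA signal was 1737 and 1424 in Col-0 and 1594 and 1662 in exo70A1-2. Of the other members, matK, an intron maturase gene, read 1902 and 1697 in Col-0 and 1894 and 1491 in exo70A1-2 (log2 fold change -0.10). The envelope protein gene cemA read 3106 and 3068 in Col-0 and 2794 and 3013 in the mutant (log2 fold change -0.09), and the protease subunit gene clpP stood at 0.04.

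Fitted values within 1 transcription unit often spanned 0, and differences within units were not tested. Of 11 units drawn up from textbook knowledge, the one from psbB to petD ran from -0.12 for petD to 0.42 for psbT, and the one from psaA to rps14 from -0.20 to 0.32. The low ends of both turned when 1 array was left out: petD stood at 0.17 without Col-0 replicate 1 and at 0.04 without exo70A1-2 replicate 2, and rps14 at 0.32 and 0.00. The unit from rpl23 to rpoA, with 7 tested members, ran from -0.14 for rpl22 (0.08 without exo70A1-2 replicate 1) to 0.38 for rpl36. The narrowest were atpB with atpE, whose values differed by 0.10, and psaI to petA, whose 4 values lay from -0.09 to 0.03. Along the genome 33 of 67 pairs of neighbouring tested genes had fitted values of the same sign, or 49.3%. The correlation between neighbours was 0.11 over these pairs, which share genes and arrays and so carry no test.

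**Figure D5:**
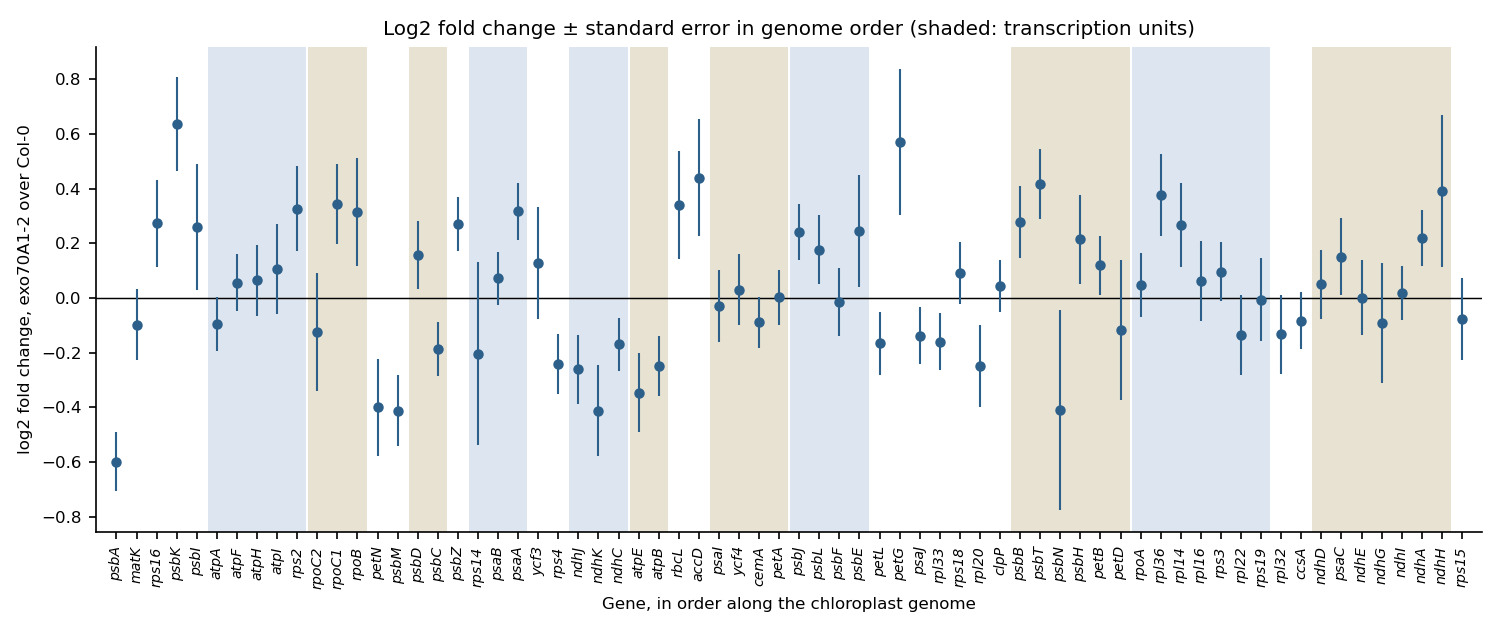
Log2 fold change of exo70A1-2 over Col-0 with its standard error (vertical axis) for the 68 tested genes in their order along the chloroplast genome (horizontal axis, by rank and not to scale). Shaded spans mark 11 transcription units; psbN lies inside the span from psbB to petD but is not part of that unit. Values of 1 unit often lie on both sides of 0, and those from ndhC to ndhJ and of atpB with atpE are all below it.

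Nuclear genes of the same complexes were picked by symbol among the single-gene probe sets, and few matched. Of 7 nuclear photosystem and antenna genes 1 rose and 1 fell, and their median was -0.02. They were the antenna genes LHCB4.2, at 2548 and 1598 in Col-0 and 3957 and 3148 in exo70A1-2, and LHCB4.3, at 159.7 and 152.1 in Col-0 and 53.1 and 48.1 in the mutant. Their log2 fold changes were 0.81 (adjusted p = 0.0289, limma) and -1.63 (adjusted p = 0.000379, limma). For comparison, 8.54% of all tested probe sets were called higher and 7.5% lower. A list of 7 genes is too short to set its calls against these shares, and the difference was not tested. The gamma subunit gene ATPC1 of the ATP synthase stood at -0.22, beside -0.25 for the plastid gene atpB, and neither passed. Among the other plastid ATP synthase genes atpE stood at -0.35 and the rest ran from -0.10 to 0.11. Signal of ATPC1 was 4198 and 3454 in Col-0 and 3301 and 3245 in exo70A1-2, with Col-0 replicate 1 the highest array. The other matched gene, ATPC2, stood at -0.07 with overlapping genotypes. Of 18 listed markers of green tissue 2 were matched by symbol to a single-gene probe set, RCA at -0.16 and LHCB4.1 at -0.10. LHCB4.1 is also among the nuclear antenna genes above. Of 16 listed root markers 5 were matched, with log2 fold changes from -0.04 to 0.22. The array had 8730 unnamed probe sets, so markers without a match may still have one. None of these 7 matched markers was called. Both green markers were lower on both mutant arrays, as were 30.6% of all tested probe sets. Of the 5 root markers 2 were higher on both mutant arrays and 1 was lower. The summed signal of the green markers was 10100 and 9325 in Col-0 and 8763 and 9005 in exo70A1-2, and that of the root markers 7246 and 7213 against 7423 and 7490. Their part in the plastid values was not tested.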

How the data were processed

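The deposited table gives 1 intensity for each of 22810 probe sets and 4 arrays. Software named in the submitters' processing notes is MAS5 and GCOS (versions not given in the sources used here), and the labels name biotin labelling by 3' in vitro transcription. As the values show, the authors scaled each array so that its mean with 2% trimmed at each end was 100.01. Neither probe-level data nor present calls entered the work.

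The 64 control probe sets were left out and log2 of the signal was taken with nothing added. The 13648 probe sets with a mean log2 signal at or above the 40th percentile were fitted with limma 3.58.1 in R 4.3.3 (lmFit, eBayes with an intensity trend, two-sided). Adjustment (Benjamini-Hochberg) ran over all of them, and calls were made under 0.05. The residual degrees of freedom were 2 and those of the prior 6.66. Precision is limited by having only 2 arrays of each genotype. The fit was tested on simulated data with known changes and independent noise drawn from its own fitted spreads. Such data check the procedure only and do not bear on the calls made here.

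Probe sets were named through the array's annotation table and placed by gene ID in the RefSeq table of assembly TAIR10.1. Mitochondrial gene IDs had 0 matches, so these were matched by symbol, a choice made after seeing the data. Members, groups, transcription units and lists were chosen with earlier results of these data known. Genes given by array are those called, the 5 largest changes each way, the 5 brightest, and the brightest, highest and lowest of each group. Other genes, psbI and psbZ among them, were picked after their values were seen. Figures were drawn with matplotlib 3.10.9.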

Additional observations from a re-analysis of the deposited data

How the results depend on the processing

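The main counts were 1 plastid-encoded gene higher and 1 lower. The number higher was 3 after quantile normalization, 0 with no filter on dim probe sets and 0 without the intensity trend. Over all probe sets 8.21%, 3.91% and 6.46% were higher in these settings. At an unadjusted p under 0.05 (limma) the settings without filter and without trend gave 6 and 2 members higher. No share over all probe sets is given at that threshold. Over all 13648 tested probe sets an adjusted p threshold of 0.10 gave 1694 higher and 1599 lower. Among the 68 tested members it gave 4 higher and 2 lower, a smaller share each way, and this difference was not tested. Leaving out 1 array gave 1 to 8 higher and 1 to 7 lower, where a single remaining array is taken to vary as the other genotype's do. Labels give both genotypes replicates 1 and 2 without saying what the numbers share. A replicate block gave 14 higher and 6 lower, and over all probe sets 2168 higher and 2098 lower. Differences between replicate arrays correlated across the genotypes at 0.28 over all tested probe sets and at 0.53 over the members. With only 2 arrays per genotype the numbers are not taken as pairs. Over all probe sets 1165 were higher and 1024 lower; leaving out 1 array gave 577 to 1696 and 396 to 1347. Both lowest counts came without exo70A1-2 replicate 2. Without the trend 679 were lower, and at 0.10, by construction, 1599 were. The members' median of 0.05 was 0.107 after quantile normalization, and the medians were then 0.280 for photosystem II (0.21 in the main setting), -0.014 for cytochrome b6f (-0.08) and 0.052 for ATP synthase (-0.02). With 60th-percentile filtering cytochrome b6f stood at 0.003, since fewer genes were tested. For NDH (0.00) the median was -0.028 with array medians equal and -0.044 with no filter, since ndhF came in. Leaving out 1 array moved the median from 0.057 to 0.261 for photosystem II, -0.168 to 0.002 for cytochrome b6f, -0.101 to -0.040 for ATP synthase, -0.124 to 0.004 for NDH and -0.117 to 0.082 for the large ribosomal subunit. Setting array medians equal changed the fitted sign of 4 members and quantile normalization of 8, all with main values of at most 0.14 in size. Other causes were not tested. Noisy MAS5 values limit dim members such as psbN, petD, rps14 and ndhF.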

Other observations

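The genes of the inverted repeat, of which the plastid genome holds a second copy, and the trans-spliced rps12 had 8 probe sets that carry both annotated copies and so stand outside the 69. None of the 7 that were tested was called. The ribosomal protein genes rpl2 and rpl23, neighbours in the repeat, had almost the same pattern over the arrays. Signal of rpl2 was 3860 and 2436 in Col-0 and 3809 and 2699 in exo70A1-2, and that of rpl23 was 2440 and 1527 in Col-0 and 2499 and 1640 in exo70A1-2. In both genotypes replicate 1 was far the brighter array, and the log2 fold changes were 0.06 and 0.07. The 2 probe sets of rps12 differed, with log2 fold changes of 0.31 on the dimmer and 0.00 on the brighter one. The NDH subunit gene ndhB, at 29.0 and 25.5 in Col-0 and 21.1 and 17.9 in exo70A1-2, was lower on both mutant arrays (log2 fold change -0.48, SE 0.23, adjusted p = 0.194, limma). The genes rps7 and ycf1 stood at -0.03 and 0.04, and ycf2 was too dim to test.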
